A study of Mus musculus with 12 samples.

Results

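Serotonin (5-HT) acts on its targets through a family of receptors, and 10 genes of this family, Htr1a, Htr1b, Htr1d, Htr1f, Htr2a, Htr2c, Htr3a, Htr4, Htr5b and Htr7, were followed in dorsal raphe (DR) RNA-seq from mice in which the gene of the transcription factor STAT3 was deleted by Sert-driven Cre. They were picked by name from the receptor family, leaving 4 other members of it aside, with earlier results of these data known, and are 10 of the 24421 genes counted. The tissue was a square of about 1.5 mm below the cerebral aqueduct, cut from 4 coronal sections of 300 µm, and each of the 12 libraries came from the whole-tissue RNA of 1 mouse.

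The mice were of mixed C57BL/6 x 129 strain and 8 to 16 weeks old when the experiments began. All of them carried Cre recombinase under the serotonin transporter gene (Sert Cre/+), which is active in serotonergic neurons. The 4 controls had 1 floxed Stat3 allele (Sert Cre/+; Stat3 fl/+; 2 females and 2 males), and the 8 STAT3 KO mice had both alleles floxed (Sert Cre/+; Stat3 fl/fl; 4 females and 4 males), so that controls also carried Cre and lost 1 Stat3 copy in these cells. Animals are named by genotype and the animal number in the labels. Other cells of the tissue piece kept Stat3, and a change restricted to serotonergic neurons is diluted by them in these libraries. In such bulk RNA, fewer cells of a type and less RNA per cell cannot be told apart.

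Receptors of the 5-HT1 and 5-HT5 classes couple to Gi/o proteins, which lower cAMP and open inwardly rectifying potassium channels. Receptors of the 5-HT2 class couple to Gq/11 and phospholipase C, the 5-HT4 and 5-HT7 receptors raise cAMP through Gs, and the 5-HT3 receptor is a ligand-gated cation channel. In the raphe, 5-HT1A on the cell bodies and dendrites of serotonergic neurons and 5-HT1B and 5-HT1D on their terminals act as autoreceptors that restrain firing and release. The remaining receptors are known from other neurons as well, and 5-HT2C is also abundant in the epithelium of the choroid plexus.

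The promoter windows of the autoreceptor genes are shown because STAT3 is a DNA-binding factor and the genotype comparison asks about these genes first. The RefSeq table of GRCm38.p6 held a promoter for 7 of the 10 genes, 250 bases before to 50 after each start site. The stretches below run 5′ to 3′ on the gene's own strand and end before the first annotated exon. Htr1a lies at chr13:105443443-105443638 on the plus strand, Htr1b at chr9:81633833-81634082 on the minus strand, and Htr1d at chr4:136423274-136423523 on the plus strand. Capitals mark the single match to a STAT-type motif, TTCNNNNGAA.
Htr1a: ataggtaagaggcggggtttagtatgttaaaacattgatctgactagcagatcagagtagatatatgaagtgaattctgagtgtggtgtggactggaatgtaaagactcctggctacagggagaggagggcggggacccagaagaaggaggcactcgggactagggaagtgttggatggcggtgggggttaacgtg
Htr1b: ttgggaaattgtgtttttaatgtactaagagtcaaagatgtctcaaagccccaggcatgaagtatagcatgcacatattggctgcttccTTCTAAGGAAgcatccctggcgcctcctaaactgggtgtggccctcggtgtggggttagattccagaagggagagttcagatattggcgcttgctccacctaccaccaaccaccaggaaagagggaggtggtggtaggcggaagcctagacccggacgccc
Htr1d: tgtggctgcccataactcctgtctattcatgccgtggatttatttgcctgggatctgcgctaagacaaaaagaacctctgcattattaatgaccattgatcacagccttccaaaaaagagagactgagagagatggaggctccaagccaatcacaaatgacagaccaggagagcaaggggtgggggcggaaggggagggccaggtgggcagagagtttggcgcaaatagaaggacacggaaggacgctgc

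The motif with a 4-base spacer, TTCNNNNGAA, was searched on both strands and occurs in 6.95% of the 32851 promoters of the table. Among the 7 genes with a window it was found only in Htr1b, 161 bases before the start site. The form with a 3-base spacer, TTCNNNGAA, occurs in 8.30% of all promoters and in 0 of the 7 genes. A match describes the letters and says nothing of whether STAT3 binds there, and the absence of one says only that the letters are not in this window.

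The libraries held 24379588 to 29645210 reads counted on genes. Stat3 itself measured 64.7 to 67.9 CPM in controls and 62.7 to 70.1 CPM in STAT3 KO mice (log2 fold change -0.0077, edgeR adjusted p = 0.992). Reads of retained exons and of every other cell type enter this value, so it does not check the deletion, which is limited to cells with Sert-driven Cre. Serotonergic markers were present in all 12, with a summed level of 12 genes between 1678 and 2107 CPM (counts per 1000000 counts of a library total scaled by TMM, a normalisation across libraries) in controls and between 1522 and 2236 CPM in STAT3 KO mice. Tph2, the rate-limiting enzyme of 5-HT synthesis in neurons, ranged from 540 to 879 CPM. Markers of neighbouring regions were high in some libraries. The 10 forebrain excitatory markers summed to 599 CPM in control 4, against 94.9 to 183 CPM in the 8 STAT3 KO mice. The 7 dopaminergic markers summed to 581 CPM in control 3, with 293 to 394 CPM in the STAT3 KO mice. The 10 cerebellar markers summed to 752 CPM in STAT3 KO 16. Ttr, the transthyretin gene of choroid plexus, reached 213 CPM in STAT3 KO 8, one of 2 libraries, with STAT3 KO 16, that held over 1000 Ttr reads.

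All 10 receptor genes were read in every library. For comparing genes with each other, CPM was divided by the merged exon length in kilobases. Htr2c, an X-linked Gq-coupled receptor gene, stood highest at 24.4 ± 1.68 CPM per kb (mean ± SD, n = 12). The Gi-coupled autoreceptor gene Htr1a followed at 10.7 ± 0.962 CPM per kb, and the Gs-coupled Htr7 at 8.98 ± 0.546 CPM per kb. These 3 genes made up most of the summed per-kb level of the 10, with 41.8 to 48.7% for Htr2c, 17.8 to 21.3% for Htr1a and 14.6 to 18.3% for Htr7.

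The mean level of Htr7 was 3.84-fold that of Htr1d, the next of the 10, although Htr5a, outside them, stood between both at 3.32 ± 0.320 CPM per kb. Htr1d stood at 2.34 ± 0.480 CPM per kb, Htr5b at 1.97 ± 0.414, Htr2a at 1.76 ± 0.389, Htr1b at 1.45 ± 0.167 and Htr3a at 1.40 ± 0.366, all in CPM per kb with n = 12. The last places were taken by Htr4, at 0.978 ± 0.139 CPM per kb, and by Htr1f, at 0.524 ± 0.106 CPM per kb. The ranges over animals did not overlap between Htr2c and Htr1a, between Htr7 and Htr1d, or between Htr4 and Htr1f. Other neighbours in this order had overlapping ranges, and Htr5b exceeded Htr2a in 8 of the 12 animals only. Htr1a exceeded Htr7 in 12 of 12 animals although their ranges overlapped. The order of the means was the same in controls and in STAT3 KO mice.

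**Figure D1:**
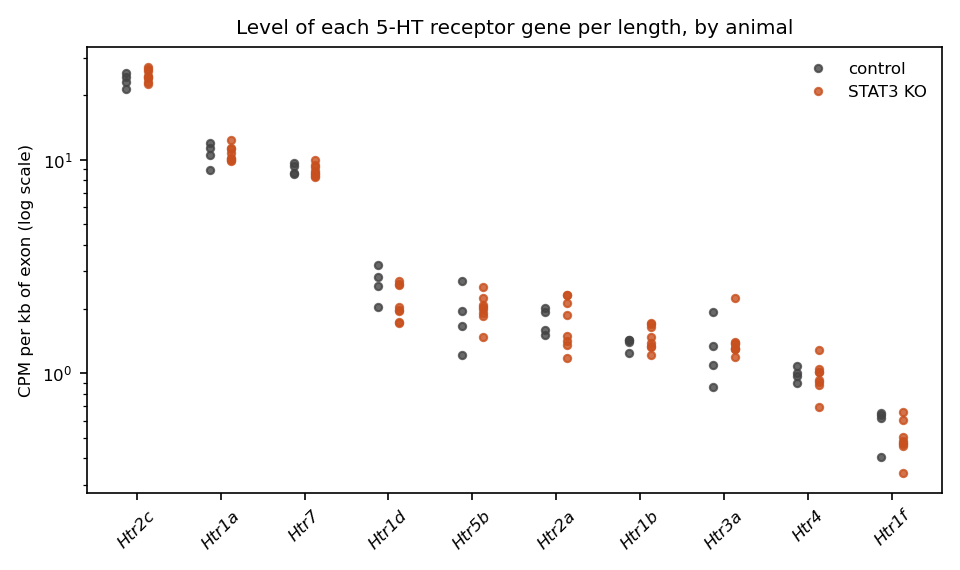
Level of each receptor gene in CPM per kilobase of merged exon (log axis), with 1 point per animal, grey for the 4 controls and orange for the 8 STAT3 KO mice. Htr2c, Htr1a and Htr7 lie above every animal of the other 7 genes, and the points of both genotypes overlap for each gene.

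Gene length bears on this order. Htr2c has 9328 bases of merged exon but a longest transcript of 4883 bases. With the longest transcript as length its level became 46.7 CPM per kb, with the order of the 10 genes unchanged. By CPM without division by length, Htr2a, Htr4 and Htr5b took places 4, 7 and 8, against 6, 9 and 5 per kb. Htr2c, Htr1a, Htr7 and Htr1f kept their places. Htr1a is a single-exon gene of 4484 bases on chromosome 13 (105443639-105448122), so that its length does not depend on the transcript chosen. The protein-coding sequences of Htr1a, Htr1b, Htr1d and Htr1f each lie in 1 exon. Htr1b (chromosome 9, 81628291-81633828, minus strand) overlaps an antisense transcript, D430036J16Rik, and whether reads were counted by strand is not given in the sources used here, so its reads may include some of its partner.

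Outside the 10 genes, Htr5a, a further Gi-coupled receptor gene, had 407 to 589 reads per library, and Htr6, a Gs-coupled one, had 25 to 38. Htr2b had at most 1 read and Htr3b at most 3 reads in any library, at or below the limit that a count of 0 allows (0.101 to 0.123 CPM, from 3 counts; counting error only), and neither was tested. Htr3b encodes the partner subunit that forms mixed channels with 5-HT3A.

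The receptor genes differed in how much they varied between animals. Htr7 and Htr2c were the steadiest, with a coefficient of variation (CV) of CPM of 6.08% and 6.86% over the 12 animals, and for Htr2c the highest animal exceeded the lowest 1.26-fold. Htr3a had the widest spread at 26.2%, from 1.79 CPM in control 3 to 4.69 CPM in STAT3 KO 14. Counting error alone would give 11.1% for Htr3a at its mean of 80.5 reads per library.

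The CV of Htr2a was 22.0%, against a median of 9.69% among 905 genes of like counts and 6.05% from counting alone. Htr1d had a CV of 20.5%, where genes of like counts had a median of 11.3%. Htr5b varied by 21.0% against 14.8% for its peers in counts, and Htr1a by 8.98% against 6.06%. Htr7 and Htr2c, the steadiest in CV, stood at 6.08% against 6.65% and at 6.86% against 5.81%. By contrast Htr1b, Htr4 and Htr1f varied about as much as genes of like counts, with 11.6% against 11.6%, 14.2% against 13.6%, and 20.3% against 21.8%. For Htr1f, with 24 to 48 reads per library, counting error alone amounts to 16.4%.

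**Figure D2:**
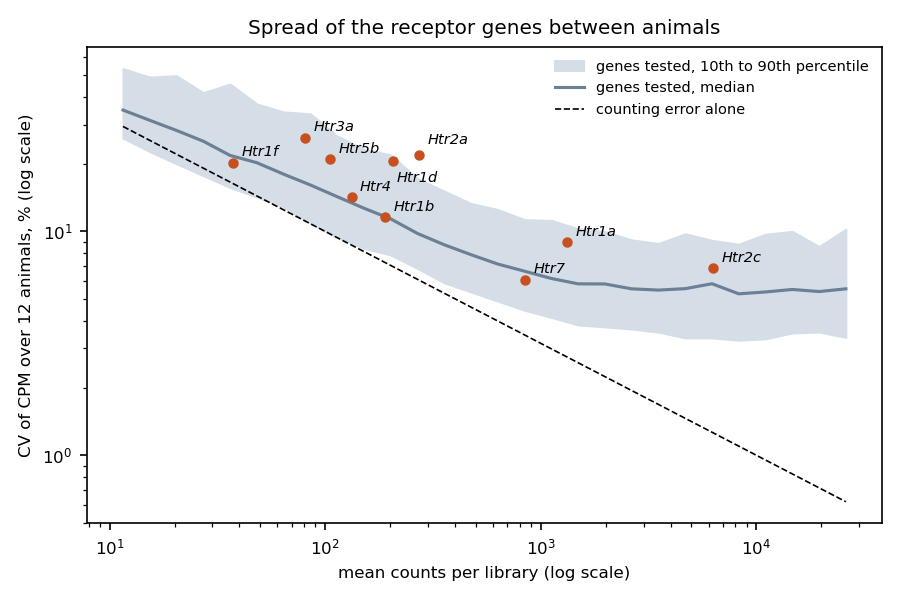
CV of CPM over the 12 animals (%, log axis) against mean reads per library (log axis) for the 10 receptor genes (points). The grey band holds the 10th to 90th percentile of all genes tested, the solid line their median and the dashed line counting error. Htr2a, Htr3a, Htr5b, Htr1d and Htr1a lie above the median line, Htr2c slightly above it, and Htr7, Htr1b, Htr4 and Htr1f close to it.

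The genotype comparison asked whether receptor transcripts in the DR differed when STAT3 was deleted from serotonergic neurons. No receptor gene passed the test between STAT3 KO and control mice. With edgeR's quasi-likelihood test and Benjamini-Hochberg adjustment over the 15453 genes tested, 0 of the 10 genes passed an adjusted p of 0.05, where 0% of all genes passed, and the lowest adjusted p of the 10 was 0.658. At an unadjusted p under 0.05 there were also 0 of the 10, against 7.66% of all genes. DESeq2 called 0 of the 10, against 0.03% of the genes to which it gave an adjusted p. STAT3 KO and control ranges overlapped for all 10, whereas 0.447% of all genes had ranges that did not overlap. Of the 10 log2 fold changes (STAT3 KO minus control), 4 were above and 6 below 0, with a median of -0.0042, close to the -0.0011 of all genes tested. Regardless of sign, the median size was 0.083 for the 10 and 0.056 for all genes tested.

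Among the autoreceptor genes, Htr1a measured 40.3, 47.4, 51.0 and 53.7 CPM in controls 3, 11, 13 and 4. In the 8 STAT3 KO mice its lowest value was 44.4, the median 47.1 and the highest 55.2 CPM. Control 3 was the lowest and STAT3 KO 8 the highest of all animals, and 7 of the 8 STAT3 KO mice lay within the control range. The controls averaged 48.1 ± 5.80 CPM and the STAT3 KO mice 48.1 ± 3.85 CPM, and the 95% interval of the log2 fold change ran from -0.16 to 0.16 (edgeR adjusted p = 0.99995).

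Htr1b, whose product curbs release at terminals, stood at 5.85 CPM in control 4 and at 6.64, 6.78 and 6.80 CPM in controls 13, 11 and 3. The STAT3 KO mice ranged from 5.77 to 8.13 CPM with a median of 6.77 CPM. The highest animals were thus STAT3 KO mice, but the lowest was one as well. The log2 fold change was 0.10 with a standard error (SE) of 0.10 (edgeR adjusted p = 0.879), and it was 0.056 without control 4.

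Htr1d gave the lowest fold change of the 10. Controls measured 6.51, 8.24, 9.05 and 10.3 CPM in animals 4, 13, 11 and 3, and the STAT3 KO mice ranged from 5.51 to 8.64 CPM with a median of 6.47 CPM. Of the 8 STAT3 KO mice, 7 lay under the control mean and 4 lay within the control range. The difference was -0.29 (SE 0.14, 95% interval -0.60 to 0.013) on the log2 scale. It did not pass the test, with an edgeR unadjusted p of 0.0593 and adjusted p of 0.658, and permuting the genotype over all assignments of the animals gave an exact permutation p of 0.0970.

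This Htr1d value depended on single animals. Without control 3, which held both the highest Htr1d value and the highest dopaminergic markers, it was -0.19, and without control 4, the animal with high forebrain markers, it was -0.40, with an unadjusted edgeR p of 0.0146 and an adjusted p of 0.419. Over the 12 animals Htr1d had an r of 0.51 with the dopaminergic score (rho = 0.23), and 0.16 without control 3 and STAT3 KO 10, and the part of these markers in the Htr1d difference was not tested. The fourth Gi-coupled gene of the subfamily, Htr1f, averaged 1.49 ± 0.304 CPM over the 4 controls and 1.28 ± 0.247 CPM over the 8 STAT3 KO mice. At this depth its 95% interval was wide, from -0.61 to 0.17 on the log2 scale (edgeR adjusted p = 0.842). Htr5b, also assigned to Gi/o, averaged 3.65 ± 1.21 CPM in the controls and 3.91 ± 0.593 CPM after deletion, where all 8 animals lay within the control range of 2.35 to 5.24 CPM.

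**Figure D3:**
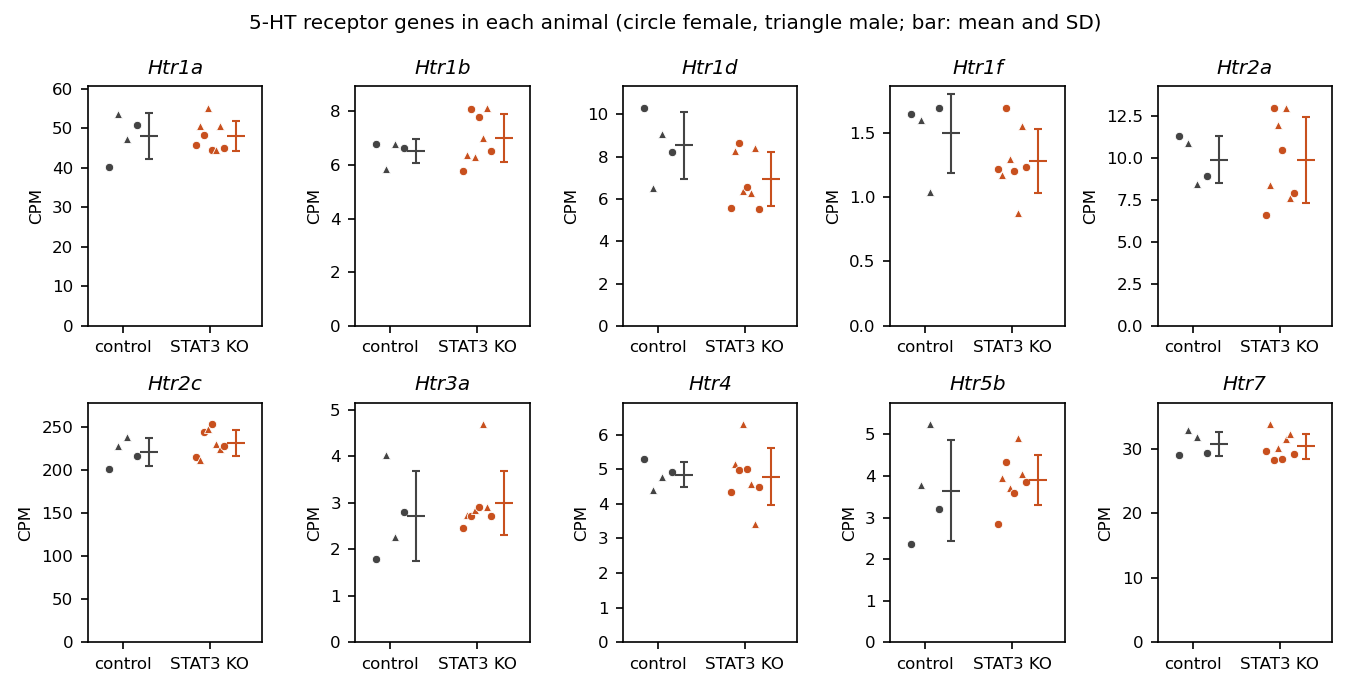
CPM of the 10 receptor genes in each animal, controls (grey, n = 4) and STAT3 KO mice (orange, n = 8), with circles for females and triangles for males and the bar giving the mean and SD. The genotypes overlap in every panel, and Htr1d shows 7 of 8 STAT3 KO mice under the control mean of 8.53 CPM.

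Of the Gq-coupled pair, Htr2c measured 201, 216, 228 and 238 CPM in controls 3, 13, 4 and 11, and from 211 to 253 CPM, with a median of 229 CPM, in STAT3 KO mice. Control 3 was the lowest and STAT3 KO 10 the highest animal, and 5 of the 8 STAT3 KO mice lay within the control range. The means were 221 ± 16.1 and 231 ± 15.1 CPM, and the 95% interval of the log2 fold change was -0.052 to 0.19 (edgeR adjusted p = 0.842). The libraries rich in Ttr, STAT3 KO 8 and STAT3 KO 16, had 247 and 227 CPM of Htr2c, inside the range of the other STAT3 KO mice, and without them the log2 fold change was 0.060. Htr2a, the receptor gene of cortical pyramidal cells and many other neurons, averaged 9.92 ± 1.42 CPM in the controls and 9.88 ± 2.57 CPM after deletion. Its STAT3 KO values ran from 6.61 to 13.01 CPM and only 1 of the 8 lay within the control range of 8.48 to 11.4 CPM, with 4 above and 4 below the control mean.

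The Gs-coupled Htr7 had one of the narrowest intervals of the 10, from -0.14 to 0.10 on the log2 scale, with control and STAT3 KO means of 30.8 ± 1.88 and 30.4 ± 1.96 CPM (edgeR adjusted p = 0.971). For Htr4 the control and STAT3 KO means were 4.85 ± 0.373 and 4.78 ± 0.821 CPM (edgeR adjusted p = 0.992). Htr3a, which encodes the channel subunit, rested at 2.73 ± 0.965 CPM in the controls and at 2.998 ± 0.697 CPM after deletion (edgeR adjusted p = 0.934). Its log2 fold change of 0.13 had a wide 95% interval, from -0.30 to 0.57, which includes 0. Htr5a and Htr6 had log2 fold changes of -0.031 and -0.084, with edgeR adjusted p of 0.968 and 0.952. The Htr6 value was -0.20 without control 3 and -0.029 without control 11.

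**Figure D4:**
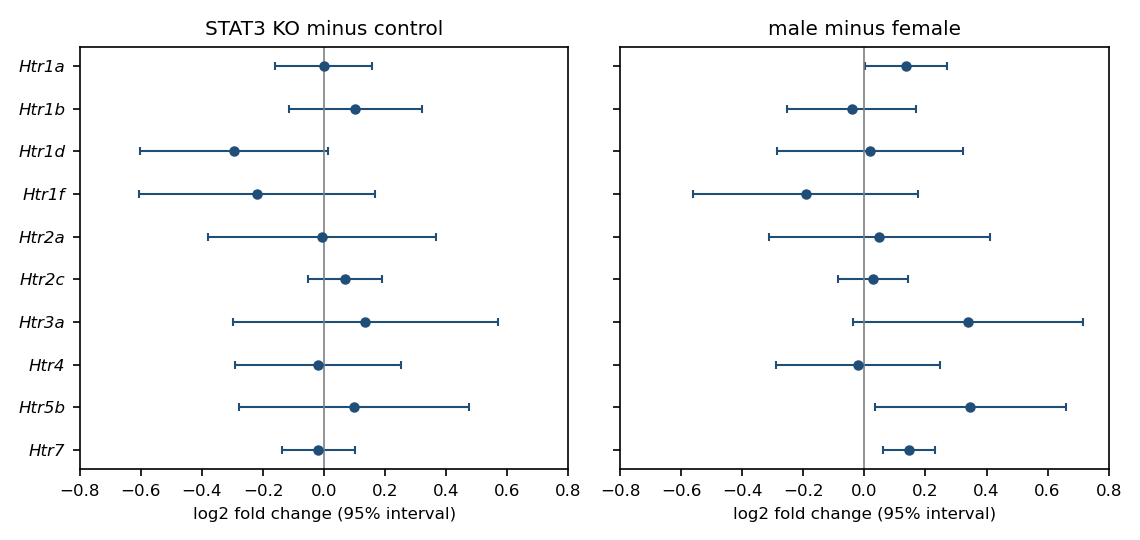
Log2 fold change with its 95% interval (edgeR) of each receptor gene, STAT3 KO minus control on the left and male minus female on the right. Every genotype interval includes 0, with Htr1d reaching from -0.60 to 0.013, while the sex intervals of Htr7, Htr5b and Htr1a lie above 0 before adjustment over all genes.

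Both sexes were represented equally in each genotype, so the receptor genes were also compared between 6 males and 6 females with genotype in the model. None passed at an adjusted p of 0.05 (0 of 10, against 0.0841% of all genes tested). DESeq2 called 0 of the 10, against 0.139% of the genes to which it gave an adjusted p. At an unadjusted p under 0.05 there were 3 of 10, where 7.2% of all genes lay under that value, and all 3 were higher in males. These were Htr7, Htr5b and Htr1a. The count fell to 1 without STAT3 KO 5, where 1101 of 15414 genes lay under that value. It was also 1 without control 3, where 849 of 15553 genes did.

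Htr7 was the 1 gene of the 10 whose values did not overlap between the sexes, which held for 0.453% of all genes. Females measured from 28.3 to 29.6 CPM with a median of 29.1 CPM, and males from 30.1 to 33.8 CPM with a median of 32.0 CPM. Every male lay above every female in both genotypes, with means of 29.2 and 32.3 CPM in control females and males and of 28.9 and 31.9 CPM in STAT3 KO females and males. The log2 difference was small, 0.15 with an SE of 0.040. The edgeR unadjusted p was 0.0027 and the adjusted p 0.564, and the exact permutation p of 0.00216 is the smallest that assignments of 6 and 6 animals can give.

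Htr5b, a gene that is intact in rodents and encodes a little studied receptor, measured 3.37 ± 0.713 CPM in females and 4.27 ± 0.642 CPM in males. The highest females and lowest males overlapped, and the log2 difference was 0.35 with an SE of 0.15 (edgeR unadjusted p = 0.0312, adjusted p = 0.673). Htr1a measured 45.8 ± 3.62 CPM in females and 50.4 ± 3.93 CPM in males, a log2 difference of 0.14 with an SE of 0.063 (edgeR unadjusted p = 0.0466, adjusted p = 0.689). The X-linked Htr2c differed by 0.027 on the log2 scale, with a 95% interval of -0.087 to 0.14. Outside the 10, Htr5a was 0.16 higher in males on the log2 scale, without passing adjustment (edgeR unadjusted p = 0.0361, adjusted p = 0.677).

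Cerebellar markers had lower values in males in the same libraries. All 10 of that list were tested, 9 were lower in males at an unadjusted edgeR p under 0.05, and 0 passed adjustment. Their summed level ran from 133 to 752 CPM in females and from 107 to 171 CPM in males. With the mean level of these markers as a further covariate, added after the data had been seen, the log2 sex difference was 0.13 for Htr7 (SE 0.053), 0.46 for Htr5b (SE 0.19) and 0.057 for Htr1a (SE 0.075). In that edgeR fit Htr7 had an unadjusted p of 0.0298 and an adjusted p of 0.952, Htr5b an unadjusted p of 0.0273 and an adjusted p of 0.952, and Htr1a an adjusted p of 0.958. Leaving out 1 animal at a time, the Htr7 difference ran from 0.12 to 0.16 and stayed under the unadjusted threshold in 12 of 12 fits. The Htr5b difference ran from 0.24 to 0.43 and missed that threshold in 5 of 12 fits, and that of Htr1a ran from 0.092 to 0.18 and missed it in 8 of 12.

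**Figure D5:**
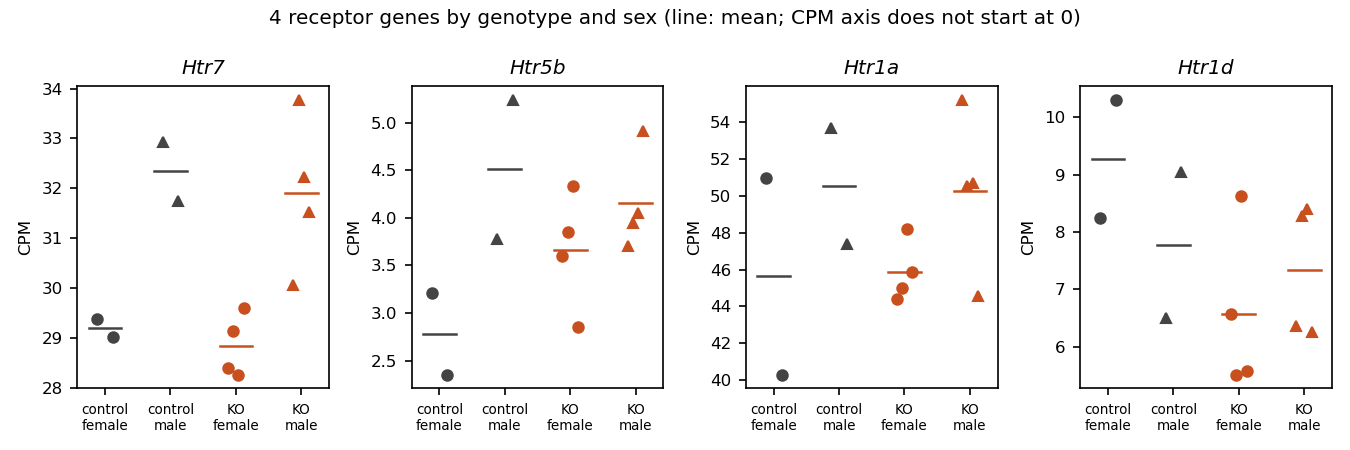
CPM of Htr7, Htr5b, Htr1a and Htr1d by genotype and sex (2 control females, 2 control males, 4 STAT3 KO females, 4 STAT3 KO males), with 1 symbol per animal and a line at the mean, on axes that do not start at 0. Htr7 lies at 29.6 CPM or less in every female and at 30.1 CPM or more in every male, and the other 3 genes overlap between the sexes.

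The genotype difference was also compared between the sexes with an interaction term. It passed for 0 of the 10 genes, with 0% of all genes passing, and at an unadjusted p under 0.05 for 0 of the 10 against 5.49% of all genes. The lowest unadjusted p belonged to Htr2c, with an interaction of -0.20 on the log2 scale (SE 0.10, edgeR unadjusted p = 0.0751). Its control means were 208 CPM in females and 233 CPM in males, and its STAT3 KO means 235 and 228 CPM. With 2 control animals of each sex, these values are imprecise, and the SE of the 10 interaction terms ran from 0.090 to 0.39.

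The signalling partners of the receptors were compared between genotypes by lists of G protein, effector and regulator genes. No gene of these lists passed adjustment, and the lowest adjusted p in each of them was 0.615. The 2 genes named from each list are those of its lowest unadjusted p, so their permutation p is no separate support. Of the 15 Gi/o partners, 5 were above and 10 below 0, with a median log2 fold change of -0.042, and 2 lay below 0 at an unadjusted edgeR p under 0.05, where 7.66% of all genes in both directions did. Kcnj3, a subunit of the GIRK potassium channel opened by 5-HT1A, had control and STAT3 KO means of 81.2 ± 1.99 and 73.8 ± 4.56 CPM (log2 fold change -0.14, exact permutation p = 0.0162). Rgs4, which speeds the shut-off of Gi and Gq proteins, measured 106 ± 19.99 and 88.6 ± 4.82 CPM (log2 fold change -0.26, exact permutation p = 0.0202). The highest Rgs4 value, 135 CPM, was that of control 4, the library with the high forebrain markers, and without it the log2 fold change was -0.12.

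Of 17 Gs and cAMP genes, 6 were above and 11 below 0, with a median log2 fold change of -0.016, and 2 fell under the unadjusted threshold, both below 0. Adcy9, an adenylyl cyclase, measured 78.7 ± 5.33 and 67.2 ± 4.57 CPM in the same order, a log2 difference of -0.23 (SE 0.056, edgeR unadjusted p = 0.00094, adjusted p = 0.615, exact permutation p = 0.00404). This was the lowest unadjusted p of the genes in these lists, and the difference ran from -0.25 to -0.18 when any 1 animal was left out. The -0.18 came without control 3, which held the highest Adcy9 value, 85.9 CPM. Gnal, the olfactory and striatal Gs-type alpha subunit, measured 234 ± 14.2 and 214 ± 9.95 CPM (log2 fold change -0.13, exact permutation p = 0.0202). Without control 3, which held its highest value and the highest dopaminergic markers, the log2 fold change was -0.084 and the unadjusted threshold was no longer passed.

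Of 10 Gq genes, 5 were above and 5 below 0, with a median log2 fold change of 0.015, and 1 gene was under the unadjusted threshold. Plcb3, a phospholipase C driven by Gq, measured 19.1 ± 1.17 and 21.3 ± 0.668 CPM (log2 fold change 0.16, exact permutation p = 0.00808). Itpr1, the inositol trisphosphate receptor that is abundant in Purkinje cells, measured 160 ± 32.9 and 217 ± 112 CPM (log2 fold change 0.44, exact permutation p = 0.477). Its highest value, 394 CPM, was in STAT3 KO 16, the library with the highest cerebellar markers, and without it the log2 fold change was 0.26. Among 14 receptor regulators, 8 were above and 6 below 0, with a median of 0.0054, and 1 gene was under the unadjusted threshold. Adarb1, which edits the Htr2c transcript among others, measured 297 ± 21.6 and 269 ± 13.2 CPM (log2 fold change -0.14, exact permutation p = 0.0202). It too was highest in control 3, the library with the most dopaminergic marker RNA, without which the log2 fold change was -0.092 and the unadjusted threshold was no longer passed. S100a10, or p11, a partner of 5-HT1B, 5-HT1D and 5-HT4 receptors, measured 25.8 ± 3.15 and 27.6 ± 1.63 CPM (log2 fold change 0.096, exact permutation p = 0.230). Its log2 fold change was 0.029 without control 3 and 0.15 without control 4, where it passed the unadjusted threshold but not adjustment.

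Each receptor gene was also set against 13 marker scores, each the mean log2 CPM of a marker list, over the 12 animals. These are descriptions without a test, and of 130 correlations the 8 with r of at least 0.65 in size are given, a limit chosen after the values were seen. All points share the library of the animal, both measures are scaled to the same total, and the 2 genotypes and both sexes are pooled. Htr1a moved with the serotonergic score (Pearson r = 0.70, Spearman rho = 0.62, n = 12), and r was 0.52 without the 2 animals farthest from the median score, STAT3 KO 14 and control 3, and 0.60 within the 8 STAT3 KO mice. The next highest r with that score over all 12 animals was 0.36, for Htr1f. Htr1a did not stand apart under the other settings: without the same 2 animals Htr7 had an r of 0.59, and within the STAT3 KO mice Htr1f had 0.75. For the other autoreceptor genes r was -0.16 (Htr1b) and -0.00034 (Htr1d) over all 12 animals, and -0.087 and 0.50 within the STAT3 KO mice.

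Htr2c moved with the astrocyte score (r = 0.88, rho = 0.87, and 0.76 without control 3 and STAT3 KO 10) and against the dopaminergic score (r = -0.83, rho = -0.85, and -0.62 without the same animals). Its r with the cholinergic score was 0.73 (rho = 0.90, and 0.66 without STAT3 KO 6 and control 3). Htr1b ran against the microglia score (r = -0.65, rho = -0.62, and -0.57 without STAT3 KO 15 and STAT3 KO 14). Htr1f moved with the vascular score (r = 0.75, rho = 0.66, and 0.72 without control 11 and STAT3 KO 6). Htr3a moved with the noradrenergic score (r = 0.69, rho = 0.55, and 0.72 without STAT3 KO 15 and control 3). Htr1a ran against the cerebellar score (r = -0.65, rho = -0.70, and -0.75 without STAT3 KO 16 and STAT3 KO 10). Htr7, just under the limit in r, is added because of its sex difference. It had r = -0.64 and rho = -0.85 for the cerebellar score, and r = -0.64 without the same animals. Cerebellar markers were lower in males, and the part of sex in the Htr1a and Htr7 correlations with that score was not tested.

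The genes whose log2 CPM followed each receptor gene most closely over the 12 animals were sought among 14131 candidates, of which some reach a high r by number alone. The closest to Htr1a were Lrrc55 (r = 0.90), an auxiliary subunit of BK potassium channels, and Trmt10b (r = 0.86). Rbm26 and Gtf3c4 were closest to Htr1b, at 0.94 and 0.87, and E2f1 and Cyp2s1 to Htr1d, at 0.91 and 0.90. For Htr1f they were Psd4 and Helz2, at 0.92 and 0.88. Htr2c was followed by Cdh13, a cell adhesion gene, and Plch1, a phospholipase C, at an r of 0.94 each.

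Nothing came close to that for Htr2a, whose nearest genes, Trp53bp1 and Pygo1, reached 0.84 each. Htr3a had Pvrl2 at 0.93 (rho = 0.65) and Nln at 0.83 (rho = 0.87). Htr4 had Pmpcb at 0.91 and Mfsd11 at 0.88, and Htr5b had Ocrl at 0.91 and Cdc16 at 0.89. For Htr7 the nearest were Fam110b at 0.90 and Kdm5d, a Y-linked histone demethylase gene, at 0.87 (rho = 0.73). The Kdm5d correlation cannot be told apart from the sex difference of Htr7.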

How the data were processed

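The 12 libraries (75-base single reads, NEBNext Ultra II RNA kit) were demultiplexed and aligned by the authors, whose submitted processing notes name bcl2fastq, STAR 2.5.0b, DESeq2 1.6.3 and mm10. The deposited values are raw read counts per gene symbol, 1 file per animal, unnormalised. The read counter, annotation and strand setting are not given in the sources used here. Rows that name no gene were left out of library sizes: 13.4 to 15.3% of reads fell on no gene and 0.507 to 0.562% were ambiguous. No 2 libraries agreed within sampling noise (66 pairs, chi-square per gene of at least 5.24 over 13400 genes).

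Genes passing filterByExpr (15453) were scaled by TMM and tested two-sided with edgeR 4.0.16 glmQLFit and glmQLFTest in R 4.3.3, adjusting over all genes, after the code had been tested on simulated counts. Each animal counted as 1 sample. CPM uses TMM library sizes, and log2 CPM a prior count of 2. Gene lengths and positions came from GENCODE vM21 (GRCm38), which held 23376 of the 24421 symbols. Alternatives were DESeq2 1.42.0, RLE scaling, other filters, covariates and leaving out single animals. Grk2 and Grk3 were not found under these symbols.

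The named genes are the 10 receptor genes and the 4 other receptor genes, the 2 lowest unadjusted p of each partner list, and the 2 genes of at least 1 mean CPM most correlated with each receptor gene. The members and lists were chosen with earlier results of these data known. Counts cover whole genes in all cells of the piece, and among the 10 receptor genes depth per library limits Htr1f most.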

Additional observations from a re-analysis of the deposited data

Results flagged for a closer look

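Of 20 groups of values examined (10 receptor genes in 2 genotypes), 3 held an animal far from the rest of its group by Dixon's ratio, the gap to the nearest animal over the whole range of log2 CPM, and chance gives about 1. Htr1b was lowest in control 4, with 5.85 CPM where the other controls had 6.64 to 6.80 CPM (ratio 0.838). Htr1f was lowest in control 11, with 1.04 CPM where the other 3 controls had 1.5995 to 1.69 CPM (ratio 0.886). Htr3a was highest in STAT3 KO 14, with 4.69 CPM where the other STAT3 KO mice had 2.47 to 2.91 CPM (ratio 0.745).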

How the results depend on the processing

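The count of receptor genes passing adjustment was 0 in all 3 comparisons under every alternative run, including leaving out each animal. At an unadjusted p under 0.05, leaving out 1 animal gave 0 to 1 of the 10 for genotype, 1 to 3 for sex and 0 to 2 for the interaction. In the same fits 778 to 1673 of all genes lay under that value for genotype, 849 to 1347 for sex and 557 to 1077 for the interaction. These fits tested 15414 to 15553 genes. Fold changes of several genes changed sign under some of the alternatives, without any gene passing, and the cause was not tested. For genotype, Htr1a became 0.00037 (RLE), 0.0022 (at least 10 counts in every library) and 0.0017 (no filter), its difference in mean CPM was -0.026, and Htr2a became 0.017 with the serotonergic score as a covariate. For sex, with the cerebellar score, Htr1b was 0.00036, Htr1d -0.036 and Htr4 0.011. Without the libraries with over 1000 Ttr counts, a choice made after seeing the data like the cerebellar score, Htr1d was -0.019 and Htr2a -0.063 for sex and the Htr7 interaction was 0.024. Leaving out 1 animal, the genotype log2 fold changes that changed sign ran from -0.074 to 0.059 (Htr1a), -0.075 to 0.067 (Htr2a), -0.019 to 0.39 (Htr3a), -0.085 to 0.038 (Htr4), -0.062 to 0.33 (Htr5b), -0.043 to 0.017 (Htr7) and -0.070 to 0.018 (Htr5a). Without a change of sign, they ran from -0.35 (without control 11) to -0.15 for Htr1f and from 0.028 (without control 3) to 0.11 (without control 11) for Htr2c. For sex they ran from -0.099 to 0.0018 (Htr1b), -0.045 to 0.10 (Htr1d), -0.046 to 0.16 (Htr2a), -0.0059 to 0.058 (Htr2c) and -0.13 to 0.062 (Htr4). For the interaction they ran from -0.20 to 0.15 (Htr1a), -0.038 to 0.19 (Htr1b), -0.056 to 0.55 (Htr1f), -0.0097 to 0.36 (Htr2a), -0.54 to 0.29 (Htr3a), -0.032 to 0.024 (Htr7) and -0.39 to 0.11 (Htr6). Within the STAT3 KO mice the correlation with the serotonergic score moved to 0.50 (Htr1d), -0.28 (Htr2c), 0.059 (Htr4), -0.40 (Htr5b), 0.75 (Htr1f) and -0.85 (Htr3a). For Htr3a it was -0.082 over all 12 animals and 0.26 without STAT3 KO 14 and control 3. STAT3 KO 14 held the highest Htr3a value and the lowest serotonergic score. No paired analysis was run. The paper describes STAT3 KO and control mice as littermates, but the sample labels used here name no litter.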
